A study of Mus musculus with 48 samples.

Results

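The liver transcriptome of mice labelled as Bmal1 knockout, made with an aP2-Cre driver, was compared with that of littermate controls at the first of 6 collection times, 0 h. The comparison held 8 of the 48 libraries of the series, 4 from knockout (KO) mice and 4 from controls (WT), chosen by their labelled genotype and time. Each library was prepared from the liver of 1 mouse. All mice were C57BL/6 and 4 to 6 months old. KO mice had floxed Bmal1 on both alleles and Cre recombinase under the aP2 promoter. This is the promoter of Fabp4, and aP2-Cre is a driver used for adipocytes that can also act in other cells such as macrophages. The controls are given as WT and as littermates, and their Bmal1 alleles are not stated further. All had been kept in constant darkness for 36 h and were killed in darkness. The question posed by the design was how livers of the 2 genotypes differed at this time.

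BMAL1, whose gene is listed as Arntl, pairs with CLOCK or NPAS2 and binds E-box motifs of target genes such as the Per, Cry and Nr1d genes, whose products feed back on it. In liver, this oscillator runs beside daily signals from feeding, body temperature and adrenal glucocorticoid. Immediate early genes such as Fos and Nr4a1 are a separate class that is transcribed within minutes of a stimulus from factors already present in the cell, among them CREB, which binds the cAMP response element (CRE).

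The 8 libraries held 12847558 to 12950689 counts without the albumin row (Alb). Levels are given as CPM, counts scaled to the library total, after TMM scaling. A log2 difference is KO minus WT with its standard error from edgeR's quasi-likelihood fit, and an adjusted p is the Benjamini-Hochberg value over the 13646 genes tested, with a threshold of 0.05. The labels name the cell type as adipocyte. Of 12 adipocyte markers, Lep and Retn had no count in any of the 8 libraries, and Adipoq, Plin1 and Ucp1 at most 2. Cfd had at most 5. Fabp4 (51 to 117 counts), Lpl (85 to 383) and Pparg (120 to 180) were present in all 8 libraries. So were Cidec (73 to 1008), Plin4 (506 to 3250) and Car3 (1047 to 25278). All 12 summed to 2631 to 27180 counts. The 12 hepatocyte markers summed to 592658 to 773134 counts. The design text describes male mice. Xist, expressed from the inactive X chromosome, had 3344 to 6565 counts in these libraries, while the Y-linked genes Kdm5d and Eif2s3y had 0 and Uty had 1 count in all. This is the transcript pattern of female mice, so the sex in the design text does not match these 8 libraries.

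WT replicate 3 and KO replicate 2 stood apart from the other libraries of their groups through transcripts of other organs. In WT replicate 3, genes of adrenal steroid synthesis were present. Cyp11a1, which makes pregnenolone from cholesterol, had 127 counts there and 0 in the other 7 libraries. Cyp11b1, which completes corticosterone, had 370 counts there and 0 elsewhere. Hsd3b1 had 421 counts there and at most 1 in the others. The ACTH receptor gene Mc2r had 12 counts there and none in the others, and Nr5a1, the regulator of steroidogenic cells, had 14 against at most 1. Of 18 adrenal cortex genes in the table, 10 had their highest count of all 48 libraries in WT replicate 3. Scarb1 and Cyp17a1 of this list, which liver also expresses, had at least 642 counts in every library. Of 9 adrenal medulla genes in the table, 7 were highest in WT replicate 3 among the 8 libraries, and 5 among all 48. Dbh had 3 counts, Pnmt 2 and Chga 5 there, and 0 in the other 7 libraries. Ddc of this list had 1120 to 1429 counts in the 8 libraries, with the highest in WT replicate 4, and Npy had none. The medulla list summed to 1241 counts in WT replicate 3, within the 1175 to 1480 of the WT libraries.

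In KO replicate 2, digestive enzyme genes of the exocrine pancreas were present. The 28 pancreatic genes in the table summed to 7778 counts there, to 94, 175 and 148 in the other KO libraries and to 73 to 87 in the WT libraries. All 28 were highest in that library among the 8, and 27 among all 48. The chymotrypsinogen gene Ctrb1 had 835 counts, the lipase gene Pnlip 705, the trypsinogen gene Prss2 524 and the carboxypeptidase gene Cpb1 492. Lower counts of the same genes were seen in 2 more KO libraries. Ctrb1 had 15 in KO replicate 3 and 7 in KO replicate 4, Prss2 had 8 and 3, and Pnlip had 5 and 7, while WT and KO replicate 1 had 0 of each. The only islet gene in the table had no count at 0 h. Results that rest on these libraries are given below with both left out, which leaves 3 a side.

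**Figure D1:**
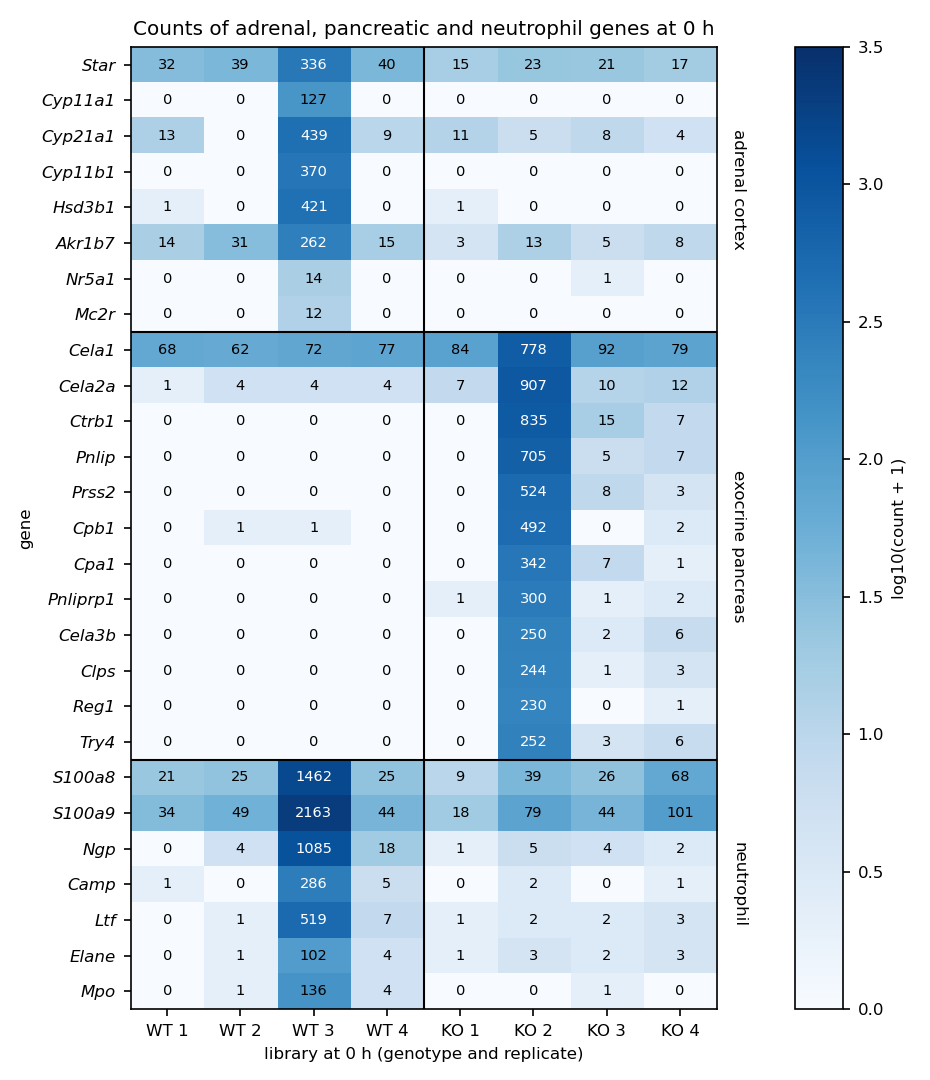
Counts of 8 adrenal cortex genes, 12 exocrine pancreas genes and 7 neutrophil genes (rows) in the 8 libraries of 0 h (columns), with colour on a log10(count + 1) scale and the count printed in each cell. The adrenal and neutrophil genes are highest in WT replicate 3, with 127 counts of Cyp11a1, and the pancreatic genes in KO replicate 2, with 835 counts of Ctrb1.

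Across all genes, 2 of 13646 passed the threshold (0.0147%), and both were highest in a library with transcripts of another organ. Cela2a, a pancreatic elastase gene (chr4:141370877-141382075, mm9), was at 0.0787, 0.326, 0.315 and 0.288 CPM in WT and at 0.525, 69.0, 0.763 and 0.936 CPM in KO. All KO values lay above all WT values, and KO replicate 2 was far above the other KO libraries. Cela2a rose by a log2 difference of 6.09 ± 1.08 (edgeR adjusted p = 0.0203), and the difference was 1.52 ± 0.76 without KO replicate 2 (adjusted p = 0.794). Without WT replicate 3 it was 6.21 (adjusted p = 0.0632), and without both libraries 1.64 ± 0.85 (adjusted p = 1.00). Star, whose product carries cholesterol into mitochondria for steroid synthesis (chr8:26918946-26925782, mm9), was at 2.52, 3.18, 26.5 and 2.88 CPM in WT and at 1.12, 1.75, 1.60 and 1.33 CPM in KO. Every KO value was below every WT value, also with WT replicate 3 set aside. Star fell by 2.59 ± 0.49 on the log2 scale (edgeR adjusted p = 0.0332), and the difference was −0.97 ± 0.35 without WT replicate 3 (adjusted p = 1.00) and −1.07 ± 0.38 without both libraries (adjusted p = 0.966). It also missed the threshold when any 1 of the KO libraries was left out, at −2.47 without replicate 1, −2.69 without replicate 2, −2.64 without replicate 3 and −2.55 without replicate 4 (adjusted p = 0.0729 to 0.247).

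Without both libraries, edgeR called 0 of 13606 genes, while 531 (3.90%) had an unadjusted p under 0.05. With all libraries that number was 754 (5.53%), of which 552 (4.05%) were lower and 202 (1.48%) higher in KO. Every KO library was below every WT library for 242 genes (1.77%) and above for 257 (1.88%). On the same counts DESeq2 called 11 genes (0.0806%), all lower in KO, and limma voom with library weights called 17 (0.125%), 15 lower and 2 higher. Fos and Atf3 were among those called by both. The median log2 difference of all genes was −0.01.

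Immediate early genes were lower in most KO livers, and some were among the genes with the lowest p-values. Of 31 listed, 28 were tested, 26 had a negative log2 difference, none passed the threshold, and the median was −0.83 against −0.01 for all genes. Without the 2 libraries 24 of 28 were negative, with a median of −0.76. For 9 of the 28, every KO library was below every WT library, which held for 1.77% of all genes. The unadjusted p was under 0.05 for 13, all lower in KO, against 4.05% of all genes.

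Atf3, a stress-induced transcription factor of the ATF/CREB family, was at 5.43, 9.54, 2.91 and 4.75 CPM in WT and at 0.600, 1.75, 1.75 and 1.56 CPM in KO. The groups did not overlap, and the lowest value belonged to KO replicate 1. Its log2 difference was −1.99 ± 0.40 (edgeR adjusted p = 0.0508), just short of the threshold, and −2.32 ± 0.46 without the 2 libraries (adjusted p = 0.0789). Fos, which forms the AP-1 factor with JUN proteins, was at 14.3, 3.02, 5.91 and 7.42 CPM in WT and at 0.450, 1.83, 0.992 and 1.17 CPM in KO. No KO library reached the lowest WT library, and the WT mean was 6.89-fold the KO mean. The log2 difference of Fos was −2.78 ± 0.60 (edgeR adjusted p = 0.0786), and −3.23 ± 0.71 without the 2 libraries (adjusted p = 0.117).

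Nr4a1, an orphan nuclear receptor gene that responds to glucagon signalling in liver, was at 57.6, 8.31, 5.20 and 24.8 CPM in WT and at 1.05, 4.72, 3.13 and 1.64 CPM in KO. The groups did not overlap, and the nearest libraries of the groups were WT replicate 3 and KO replicate 2. Its log2 difference was −3.18 ± 0.83 (edgeR adjusted p = 0.272). Dusp1, a phosphatase gene that switches off MAP kinases, was at 102, 59.9, 41.8 and 73.6 CPM in WT and at 27.7, 19.2, 28.6 and 17.6 CPM in KO. The groups were separate, and Dusp1 differed by −1.57 ± 0.43 (edgeR adjusted p = 0.297). Jun was at 121, 30.4, 14.5 and 24.8 CPM in WT and at 10.3, 11.9, 20.4 and 8.11 CPM in KO, where the groups overlapped through WT replicate 3 and KO replicate 3.

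Other members with every KO library below every WT library were chosen after their values were seen. They were Btg2, an antiproliferative gene (WT 26.3 to 41.8 CPM, KO 6.07 to 16.7), Dusp8 (WT 1.01 to 3.62, KO 0.312 to 0.533) and Ier3 (WT 1.71 to 3.23, KO 0.899 to 1.29). The growth arrest and DNA damage genes Gadd45b (WT 11.3 to 22.7 CPM, KO 5.19 to 10.1) and Gadd45g (WT 43.7 to 89.7, KO 16.0 to 33.5) were the others. Their log2 differences ran from −1.12 to −2.31, and none passed the threshold. WT replicate 1 had the highest Fos, Jun, Nr4a1 and Dusp1 of the 8 libraries, so the size of these differences depended in part on that mouse. Without it the list median was −0.52, the value nearest 0 when single libraries were left out.

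**Figure D2:**
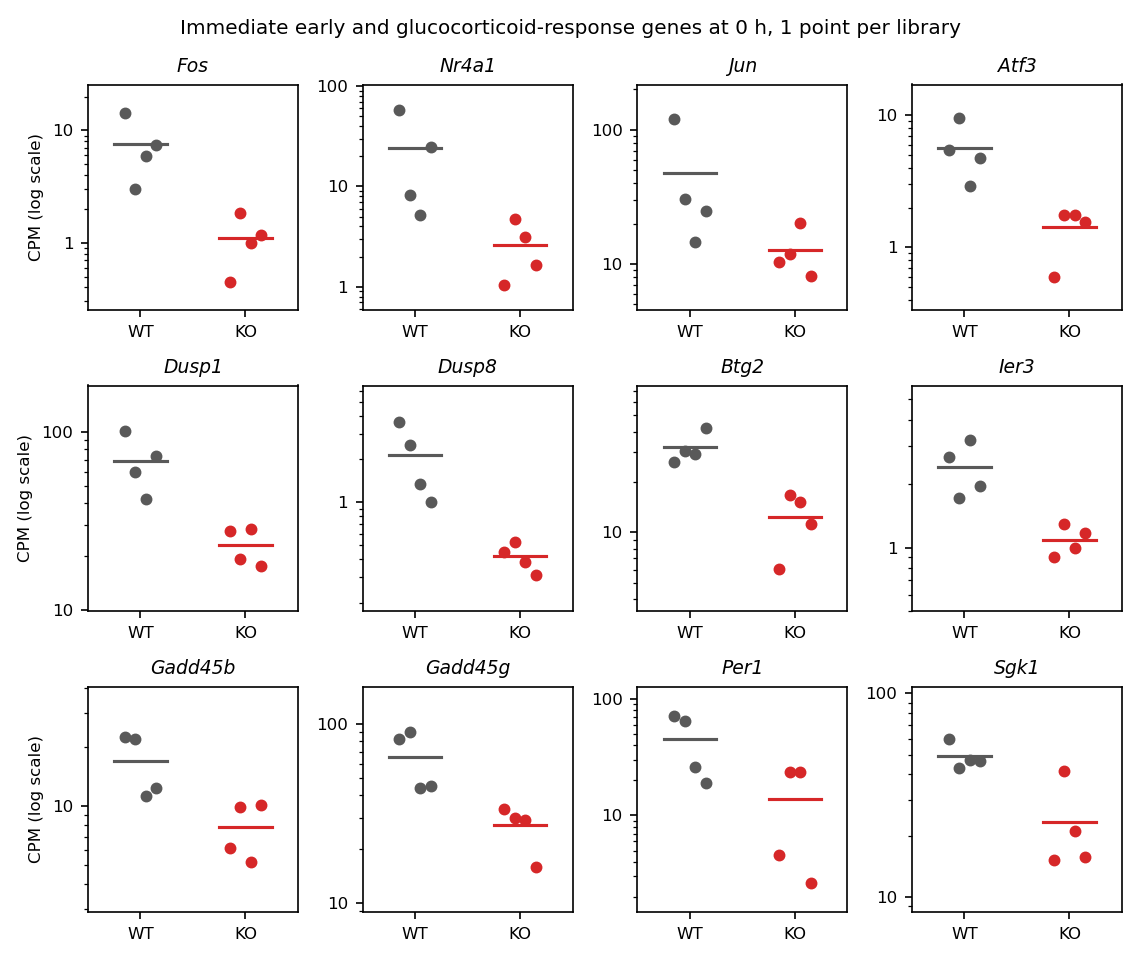
CPM on a log scale of 10 immediate early genes and of Per1 and Sgk1 in the 4 WT libraries (grey) and 4 KO libraries (red) of 0 h, with 1 point for each library and a line at the mean. The groups do not overlap for Fos (WT 3.02 to 14.3, KO 0.450 to 1.83), while they do for Jun and Per1.

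The 250 bases upstream of the start of Fos, Nr4a1, Dusp1 and Per1 are shown because cAMP signalling through CREB is known to act on these genes and Per1 also has E-boxes bound by BMAL1. They were taken from RefSeq on GRCm38.p6, on the strand of each gene, 5′ to 3′, and for Per1 from 1 of its 2 annotated starts. Capitals mark the CRE half-site TGACG or its reverse complement CGTCA, and the E-box CACGTG, both found by exact match, and a full CRE (TGACGTCA) counts as 2 overlapping half-sites.
Fos (chr12:85473640-85473889, + strand): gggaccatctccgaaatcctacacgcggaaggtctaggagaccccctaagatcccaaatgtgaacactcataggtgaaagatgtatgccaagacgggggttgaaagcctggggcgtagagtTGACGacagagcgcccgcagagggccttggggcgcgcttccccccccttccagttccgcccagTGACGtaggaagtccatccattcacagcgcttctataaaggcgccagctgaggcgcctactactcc
Nr4a1 (chr15:101266596-101266845, + strand): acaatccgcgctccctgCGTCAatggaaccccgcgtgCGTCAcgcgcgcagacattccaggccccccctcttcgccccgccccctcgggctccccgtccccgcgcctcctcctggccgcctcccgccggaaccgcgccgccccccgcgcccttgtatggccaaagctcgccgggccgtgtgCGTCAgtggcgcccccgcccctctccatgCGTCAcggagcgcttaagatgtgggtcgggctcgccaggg
Dusp1 (chr17:26508473-26508722, − strand): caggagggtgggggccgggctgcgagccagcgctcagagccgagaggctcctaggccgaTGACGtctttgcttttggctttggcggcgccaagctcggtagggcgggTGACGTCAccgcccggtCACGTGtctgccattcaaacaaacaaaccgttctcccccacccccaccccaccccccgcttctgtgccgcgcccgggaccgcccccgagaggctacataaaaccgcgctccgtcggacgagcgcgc
Per1 (chr11:69098699-69098948, + strand): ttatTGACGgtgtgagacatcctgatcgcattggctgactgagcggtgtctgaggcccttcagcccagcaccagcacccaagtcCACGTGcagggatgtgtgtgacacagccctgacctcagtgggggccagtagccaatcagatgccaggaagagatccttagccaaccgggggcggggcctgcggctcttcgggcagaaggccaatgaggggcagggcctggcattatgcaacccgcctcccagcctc

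Fos held 2 half-sites in this window, which begin at −129 and −66, counted from the base before the start. Nr4a1 held 4, and Dusp1 held 3, of which 2 formed a full CRE from −143 to −136. Dusp1 and Per1 each held 1 E-box, and Per1 1 half-site. Among all 32851 RefSeq windows of this length, 17.8% held the half-site on either strand, 1.55% the full CRE and 6.02% the E-box. Of the 28 immediate early genes tested, 23 matched a RefSeq symbol, with 28 windows, of which 15 held the half-site, 4 the full CRE and 6 the E-box. The match is to letters and does not show a bound site.

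Further genes with a low p were also lower in KO. Rasgef1b, an exchange factor for Ras-family GTPases, was at 25.7, 35.8, 23.3 and 24.0 CPM in WT and at 4.80, 20.2, 9.92 and 5.46 CPM in KO. Its highest KO value came from KO replicate 2, and its difference was −1.43 ± 0.36, or −2.07 ± 0.39 without the 2 libraries, where its edgeR adjusted p of 0.0565 was the lowest of all genes.

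Rgs1, which shortens G-protein signalling, was at 1.73 to 9.45 CPM in WT and at 0.225, 3.27, 0.229 and 0.312 CPM in KO. Fst, whose product follistatin binds activin, was at 7.64 to 18.9 CPM in WT and at 1.87, 8.07, 1.83 and 1.79 CPM in KO. For both, KO replicate 2 lay within the WT range and the other 3 KO libraries below it. With KO replicate 2 left out, edgeR called 3 of 13639 genes, Rasgef1b, Rgs1 and Sgk1. With WT replicate 3 left out as well it called no gene, and the edgeR adjusted p of Rgs1 was 0.0790. Hal, the first enzyme of histidine breakdown, was at 690 to 1742 CPM in WT and 284 to 557 CPM in KO. Timp3, a metalloproteinase inhibitor, was at 19.7 to 40.4 CPM in WT and 9.23 to 18.1 in KO, and Aim1l at 1.97 to 3.83 in WT and 0.3 to 0.702 in KO. These 3 were named after their values were seen, their groups did not overlap, and none passed edgeR's threshold.

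Slc3a1, a subunit of the transporter for cystine and basic amino acids, and Cpne8, a copine gene, also had low p-values, but their WT values rested on WT replicate 3. Slc3a1 was at 302 CPM there and at 45.2 to 70.3 in the other WT libraries, against 27.0 to 36.4 in KO. Its difference was −1.92 ± 0.43, and −0.95 ± 0.40 without the 2 libraries. Cpne8 was at 15.1 CPM in WT replicate 3, at 2.12 to 2.88 in the other WT libraries and at 1.07 to 2.28 in KO, with a difference of −1.75 ± 0.40, and −0.77 ± 0.33 without the 2 libraries. The steroidogenic genes Cyp21a1 and Akr1b7 were also highest there, at 34.6 and 20.6 CPM in WT replicate 3. Without the 2 libraries the log2 difference of Cyp21a1 was 0.06 ± 0.81 and that of Akr1b7 was −1.91 ± 0.77.

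Genes of the glucocorticoid response were lower in most KO livers. Of 18 tested, 15 had a negative log2 difference and none passed the threshold, with a median of −0.90, and −1.29 without the 2 libraries. Averaged over the list, each WT library was above each KO library, by 0.36 to 0.63 log2 units above the mean of the 8 libraries against −0.71 to 0.08 in KO. KO replicate 2 was the highest KO library. The list shares genes with others, among them Dusp1 and Gadd45g with the immediate early list, Per1 with the clock list, and Lcn2 and Mt1 with the acute phase list. Lcn2 had the lowest difference of the list, −3.46 ± 1.15, and was at 1293 CPM in WT replicate 3 and 43.6 to 70.4 in the other WT libraries. Without the 2 libraries it was at −1.31 ± 1.11. Sgk1, a kinase gene induced by corticosteroids, was at 60.0, 42.8, 47.1 and 46.8 CPM in WT and at 15.1, 41.6, 21.1 and 15.7 CPM in KO. KO replicate 2 was just below the WT range and the other KO libraries far below it, with a difference of −1.07 ± 0.29, or −1.52 ± 0.32 without the 2 libraries (edgeR adjusted p = 0.324 and 0.0790).

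Tat, which starts tyrosine breakdown, was at 1962, 2711, 1171 and 1686 CPM in WT and at 723, 1532, 916 and 796 CPM in KO. Its groups overlapped through WT replicate 3 and KO replicate 2, and its difference was −0.92 ± 0.47. Errfi1, an inhibitor of EGF receptor signalling, was at 1330 to 2093 CPM in WT and at 516, 1561, 1111 and 207 CPM in KO. The metallothionein gene Mt1 was at 517 to 1055 CPM in WT and at 207, 591, 88.8 and 264 CPM in KO. Errfi1 and Mt1 were named after their values were seen. For both, KO replicate 2 lay within the WT range and the other KO libraries below it. The serine dehydratase gene Sds, of the glucose metabolism list, had a difference of −1.21 ± 0.48 and overlapping groups. Of the 20 genes of that list, 11 were negative, with a median of −0.12.

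Acute phase genes, which the liver transcribes under inflammatory signals, were dominated by WT replicate 3. All 27 tested had a negative log2 difference with a median of −0.80, and 22 of 27 with a median of −0.37 without the 2 libraries. Saa1, serum amyloid A, was at 36.0, 29.5, 8796 and 48.0 CPM in WT and at 38.8, 81.2, 26.9 and 25.9 CPM in KO. Saa2 was at 6624 CPM in WT replicate 3 and at 7.10 to 32.6 in the other 7 libraries. For both, the 3 other WT libraries lay within the KO range. Without the 2 libraries their differences were −0.30 ± 1.05 for Saa1 and −0.54 ± 1.15 for Saa2. Orm2, an orosomucoid gene, was at 26.5, 36.7, 5099 and 43.3 CPM in WT and at 19.9, 35.9, 21.4 and 11.2 CPM in KO. Its difference was −5.88 ± 1.21 (edgeR adjusted p = 0.0508), and −0.68 without WT replicate 3 or −1.01 ± 0.82 without both libraries (adjusted p = 1.00 for each). Hemopexin (Hpx) was at 21369 CPM in that library and at 4399 to 5090 in the other WT libraries, against 3396 to 4548 in KO, a difference of −1.20 ± 0.32, or −0.39 ± 0.26 without the 2 libraries. Members of the Saa and Orm families are near-identical, so the split of reads between them is uncertain.

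Neutrophil and macrophage markers were high in the same library. The 10 neutrophil genes summed to 67, 108, 6069 and 115 counts in WT and to 36, 173, 84 and 206 in KO. In libraries of the other times they summed to 25 to 7519 counts. Of the 10 genes, 2 had their highest count of all 48 libraries in WT replicate 3. Ngp was at 85.5 CPM and Ltf at 40.9 CPM in WT replicate 3, against at most 1.3 and 0.504 in the other 7 libraries. The 9 tested had a median of −3.54, and −0.38 without the 2 libraries. The 16 macrophage and Kupffer cell genes summed to 3676, 5879, 21789 and 12908 counts in WT and to 2343, 7263, 4014 and 6708 in KO. Here WT replicate 4 was high as well, and 14 of the 16 genes had their highest count of all 48 libraries in WT replicate 3. All 16 had negative log2 differences from −1.41 to −0.86, and none passed the threshold. Their median was −1.16, and −0.76 without the 2 libraries, where 15 of 16 were negative. The unadjusted p was under 0.05 for 13 of the 16, all lower in KO, against 4.05% of all genes lower in KO. Without the 2 libraries it was under 0.05 for 3, against 3.90% of all genes in either direction. Every KO library was below every WT library for 0 of the 16, against 1.77% of all genes. Cd5l, a protein secreted by macrophages, was at 46.6, 69.4, 313 and 166 CPM in WT and at 23.7, 82.6, 48.1 and 69.4 CPM in KO, a difference of −1.41 ± 0.42, or −1.0 ± 0.43 without the 2 libraries. The scavenger receptor gene Cd163 differed by −1.30 ± 0.47, and by −1.21 ± 0.51 without them. The Kupffer cell lectin gene Clec4f, named after its values were seen, was at 52.8 to 306 CPM in WT and 39.1 to 111 in KO. In bulk tissue, fewer cells of a type and less RNA per cell cannot be told apart. The part of the adrenal and inflammatory transcripts of WT replicate 3 in these differences was not tested beyond leaving that library out.

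**Figure D3:**
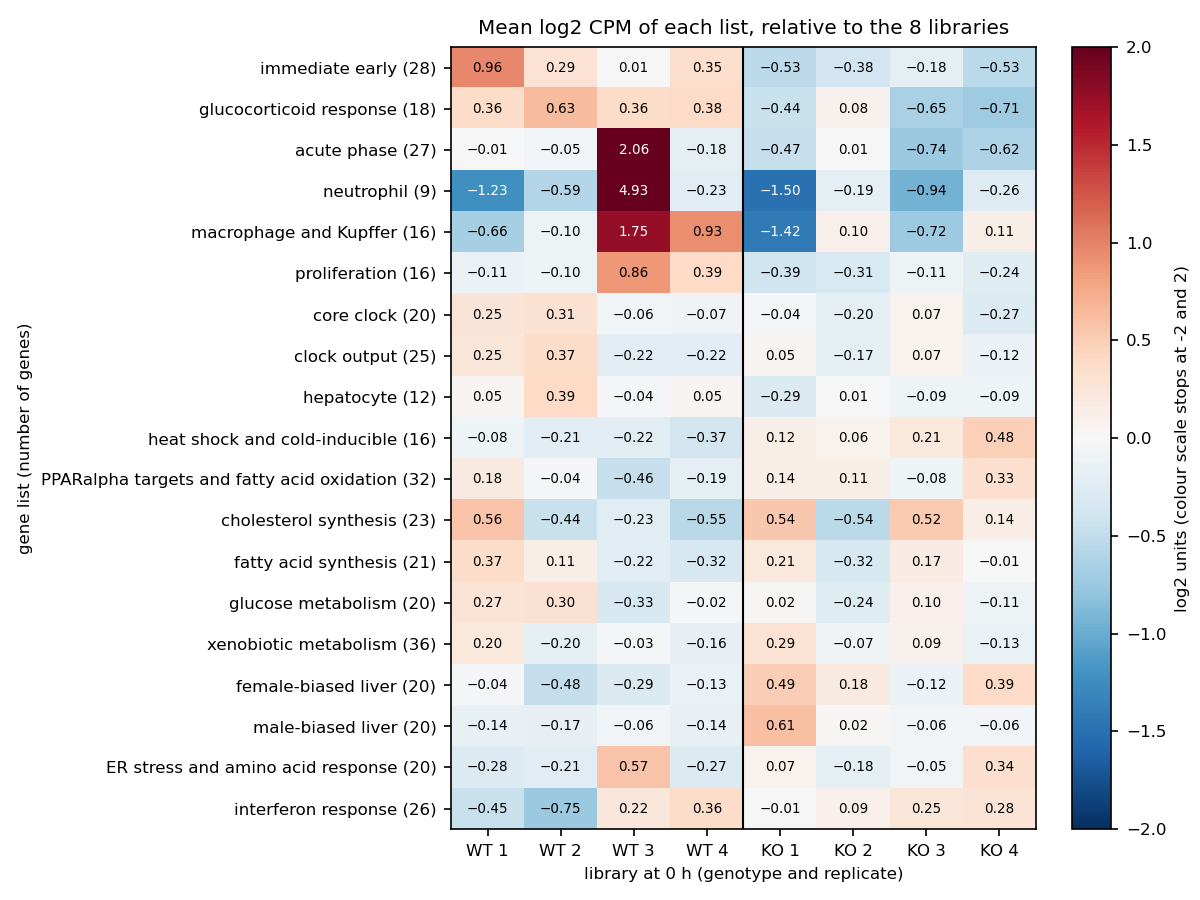
Mean log2 CPM of 19 gene lists (rows, with the number of genes tested) in each library of 0 h (columns), minus the mean of the 8 libraries. WT replicate 3 is at 2.06 for the acute phase list and 4.93 for the neutrophil list, while for the glucocorticoid list all 4 WT libraries (0.36 to 0.63) lie above all 4 KO libraries.

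No clock gene passed the threshold at 0 h. Of the 20 core clock genes tested, 14 had a negative log2 difference and the median was −0.15. Arntl, the targeted gene, was at 37.8, 43.8, 29.3 and 37.2 CPM in WT and at 36.4, 33.2, 33.1 and 26.8 CPM in KO. The ranges overlapped, with a difference of −0.19 ± 0.38 (edgeR adjusted p = 1.00). Across the collection times, mean Arntl ran from 2.02 to 37.0 CPM in WT and from 3.68 to 32.4 CPM in KO. The difference ran from −1.14 ± 0.39 at 4 h to 1.65 ± 0.43 at 12 h. The counts are over the whole gene, so transcripts that lack the floxed part could still be counted. Whether Bmal1 was lost in these livers was not tested. Npas2 was at 7.88 to 13.9 CPM in WT and 11.6 to 22.1 in KO. Per1, a repressor of the clock that also responds to glucocorticoid and cAMP, was at 70.9, 65.1, 26.2 and 19.0 CPM in WT and at 4.57, 23.8, 23.8 and 2.65 CPM in KO. KO replicates 1 and 4 were lowest, KO replicates 2 and 3 lay within the WT range, and the difference was −1.72 ± 0.62 (edgeR adjusted p = 0.596).

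Bhlhe40, a repressor at E-boxes, was at 54.4 to 112 CPM in WT and 29.7 to 54.0 in KO, so the groups just failed to overlap, with a difference of −0.74 ± 0.38. Gm129, another repressor of the clock that is also known as Ciart, was at 1.65, 5.38, 0.709 and 0.720 CPM in WT and at 0.375, 1.07, 0.229 and 0.702 CPM in KO. Cry1 differed by −0.41 ± 0.26. The nuclear receptor gene Nr1d1 was at 9.53, 2.12, 2.13 and 3.67 CPM in WT and at 15.6, 1.60, 18.8 and 5.31 CPM in KO. WT replicate 1 and KO replicates 1 and 3 were the high libraries of both groups. Of the 25 clock output genes tested, 15 were negative, with a median of −0.12, and −0.31 without the 2 libraries. Cys1 was the member with the lowest p, at 0.551 to 1.73 CPM in WT and at 2.85, 0.609, 3.59 and 2.65 CPM in KO (log2 difference 1.40 ± 0.45, edgeR adjusted p = 0.509). Tspan4 differed by −0.59 ± 0.20, and by −0.27 ± 0.21 without the 2 libraries. The PAR-domain factor gene Tef differed by −0.40 ± 0.20 and the nocturnin gene Ccrn4l by −0.98 ± 0.53.

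Among genes higher in KO, none passed the threshold other than Cela2a. The next lowest p belonged to a second pancreatic elastase gene, Cela1, at 1.86 ± 0.46 and at 0.29 ± 0.34 without the 2 libraries. Serpina12, which encodes the serpin vaspin, was at 1.5, 1.71, 1.18 and 5.54 CPM in WT and at 11.2, 6.54, 11.4 and 19.1 CPM in KO. Every KO library was above every WT library, and the difference was 2.27 ± 0.60 (edgeR adjusted p = 0.281), or 2.24 ± 0.68 without the 2 libraries. Tsc22d1, a leucine zipper regulator, was at 38.3, 42.4, 36.8 and 56.7 CPM in WT and at 145, 68.5, 97.6 and 98.6 CPM in KO, again with no overlap (1.23 ± 0.37). Irs1, the insulin receptor substrate, was at 25.9 to 41.6 CPM in WT and 50.9 to 58.7 in KO (0.75 ± 0.20). Every KO library was above every WT library for 1.88% of all genes.

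The neurotrophin receptor gene Ntrk2 was at 1.02 to 2.02 CPM in WT and at 3.90, 1.98, 14.3 and 7.65 CPM in KO (2.32 ± 0.68). E2f6, a repressor of the E2F family, was at 9.0 to 13.5 CPM in WT and at 13.5 to 22.6 in KO (0.72 ± 0.19). Ndrg1, a stress-responsive gene, was at 16.8 to 46.3 CPM in WT and at 73.5, 25.1, 67.3 and 69.5 CPM in KO (0.88 ± 0.31, and 1.23 ± 0.34 without the 2 libraries). E2f6 and Ndrg1 were the 2 genes that limma voom with library weights called higher. The histone H3 gene Hist2h3c1 was at 1.63 to 3.60 CPM in WT and 4.64 to 7.95 in KO, with reads that near-identical histone copies may share.

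Chaperone genes leaned to higher levels in KO. Of 16 heat shock and cold-inducible genes tested, 14 were positive with a median of 0.47 (0.45 without the 2 libraries), and the averaged list was higher in each KO library than in each WT library. None passed the threshold. Hsph1, a co-chaperone of HSP70, was at 27.9, 37.2, 53.2 and 35.3 CPM in WT and at 57.6, 73.8, 60.6 and 114 CPM in KO, a difference of 0.99 ± 0.31 with no overlap. The inducible HSP70 gene Hspa1b was at 0.326 to 2.83 CPM in WT and 1.98 to 13.3 in KO (1.65 ± 0.75), though it shares reads with a near-identical copy. Dnajb1, an HSP40 gene, differed by 0.48 ± 0.21 and Hspd1, the mitochondrial HSP60 gene, by 0.36 ± 0.16. The members below 0 were the cold-inducible genes, Cirbp and Rbm3. Rbm3, named after its values were seen, was at 56.0 to 71.6 CPM in WT and 38.9 to 43.1 in KO, a difference of −0.61 ± 0.28 with no overlap.

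Several genes of the endoplasmic reticulum (ER), where secreted proteins fold, had larger differences once the 2 libraries were left out. The disulfide isomerase gene Pdia6 was at 116, 130, 259 and 133 CPM in WT and at 224, 186, 194 and 266 CPM in KO. WT replicate 3 was the high WT library, and the difference of 0.45 ± 0.21 became 0.86 ± 0.22 without the 2 libraries. Pdia3 went from 0.49 ± 0.20 to 0.74 ± 0.22, and the ER lectin gene Mlec from 0.54 ± 0.19 to 0.86 ± 0.20 (edgeR adjusted p = 0.198 for Mlec without them). Of the 20 genes of the ER stress and amino acid response list, 12 were positive with all libraries and 16 without the 2, with medians of 0.03 and 0.35.

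Lipid genes differed little and none passed the threshold. Of 23 cholesterol synthesis genes, 21 were positive with a median of 0.26 (0.41 without the 2 libraries). Relative to the mean of all 0 h libraries, the averaged list was at 0.56, −0.44, −0.23 and −0.55 in WT. In KO it was at 0.54, −0.54, 0.52 and 0.14. WT replicate 1 was high and KO replicate 2 low, unlike the other libraries of their groups. Idi1, the isopentenyl isomerase gene, differed by 0.90 ± 0.69 and Sc4mol, a sterol oxidase gene, by 0.72 ± 0.58. Of 32 PPARalpha targets and fatty acid oxidation genes, 25 were positive with a median of 0.25, and 24 with a median of 0.15 without the 2 libraries. The fatty acid transporter gene Cd36 was at 304, 172, 229 and 284 CPM in WT and at 398, 488, 342 and 495 CPM in KO, with no overlap (0.80 ± 0.35). The dehydrogenase gene Acadm was at 505 CPM in WT replicate 3 and 863 to 929 in the other WT libraries, against 988 to 1143 in KO (0.43 ± 0.20, and 0.24 ± 0.21 without the 2 libraries). The pantetheinase gene Vnn1 differed by 0.78 ± 0.40. Of 21 fatty acid synthesis genes, 14 were positive with a median of 0.14.

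Among 36 xenobiotic metabolism genes, 15 were positive and 21 negative, with a median of −0.07, and 20 were positive without the 2 libraries. Cyp2b10, a target of the receptor CAR, was at 68.3, 397, 55.0 and 89.0 CPM in WT and at 11.0, 129, 20.8 and 30.8 CPM in KO. WT replicate 2 and KO replicate 2 were high in their groups, and the difference of −1.67 ± 0.68 became −3.14 ± 0.75 without the 2 libraries. The log2 differences of its relatives had the opposite sign, at 0.42 ± 0.17 for Cyp2b9 and 0.95 ± 0.40 for Cyp2b13, and their similar sequences make the split of reads uncertain. Cyp3a13 was at 386 to 748 CPM in WT and at 268 to 440 in KO (−0.76 ± 0.24). Slc20a1, a phosphate transporter gene, was at 51.3, 174, 65.7 and 52.0 CPM in WT and at 34.3, 57.6, 33.8 and 33.4 CPM in KO, with WT replicate 2 and KO replicate 2 high as for Cyp2b10.

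Proliferation genes were at low levels in all 8 libraries. Of 16 tested, 14 were negative, with a median of −0.90, and −0.39 without the 2 libraries. Mcm6, a subunit of the replicative helicase, was at 4.41, 4.73, 4.80 and 4.25 CPM in WT and at 1.72, 2.82, 3.05 and 3.12 CPM in KO. The WT values lay close together above all KO values, with a difference of −0.76 ± 0.21 (edgeR adjusted p = 0.336). Rrm2, of ribonucleotide reductase, was at 4.25 to 12.3 CPM in WT and 2.21 to 3.52 in KO.

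**Figure D4:**
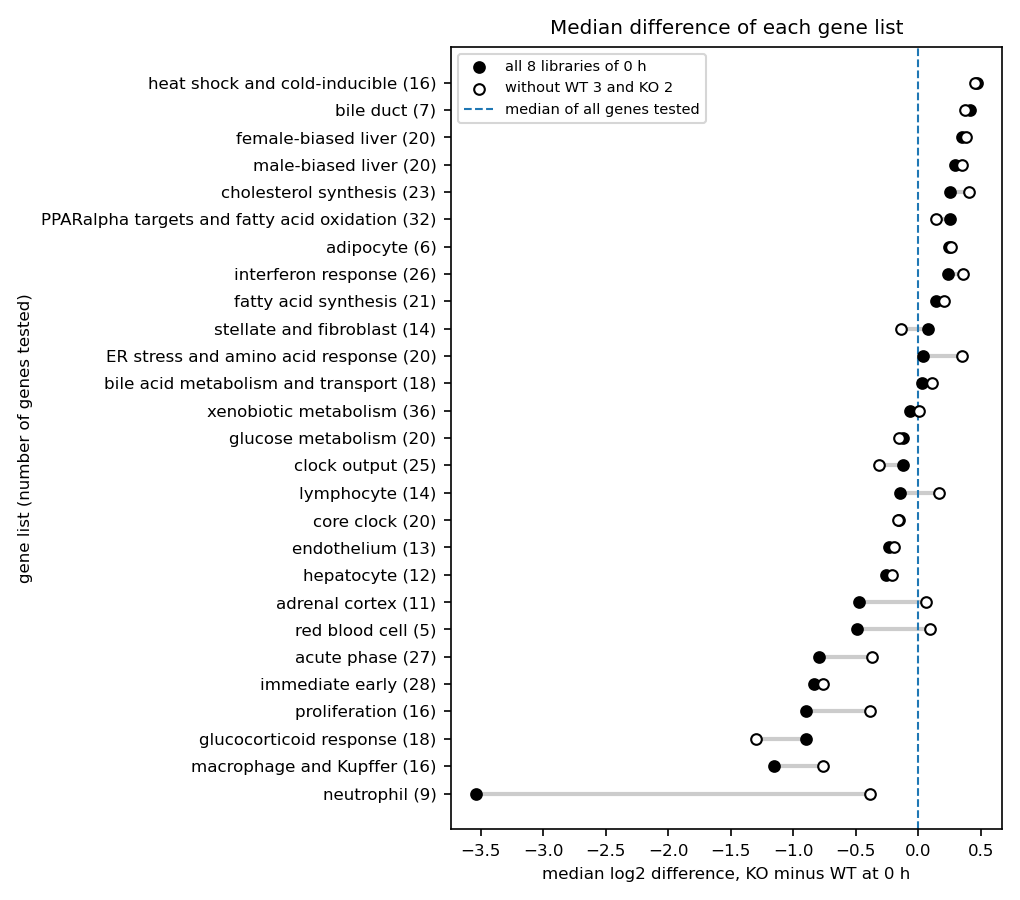
Median log2 difference at 0 h of each gene list with at least 5 tested genes, with all 8 libraries (filled) and without WT replicate 3 and KO replicate 2 (open), and the median of all genes (dashed). The neutrophil median moves from −3.54 to −0.38, while the immediate early median stays at −0.83 and −0.76.

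Whether these differences belonged to 0 h was tested by setting the 0 h difference against the mean difference of the other 5 times. By edgeR, 0 of 13646 genes passed, with 533 (3.91%) at an unadjusted p under 0.05, and DESeq2 called 3, Orm2, Atf3 and Akr1b7. Atf3 had the lowest p. Its KO minus WT difference was −1.99 ± 0.40 at 0 h and −0.23 to 0.64 at the other times, and the contrast was −2.22 (edgeR adjusted p = 0.0902). Cela2a and Orm2 had the same adjusted p. WT Atf3 averaged 5.66 CPM at 0 h and 1.3 to 2.53 CPM at the other times, while KO averaged 1.42 CPM at 0 h and 1.28 to 3.48 elsewhere. The 0 h difference therefore came with a high WT level at that time.

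Other genes of the list had a negative difference at several times. Fos differed by −2.78 ± 0.60 at 0 h, by −2.08 to −2.50 at 4, 8, 12 and 20 h and by −0.06 ± 0.61 at 16 h. Dusp1 was below WT at each of the 6 times, from −0.84 ± 0.44 at 16 h to −2.40 ± 0.44 at 4 h, and its contrast of 0 h with the other times was 0.09. Nr4a1 was at −3.18 at 0 h, −2.26 at 4 h and −2.38 at 20 h, but at 1.61 ± 0.84 at 16 h. Sgk1 was at −1.07, −0.86 and −0.69 at 0, 4 and 20 h and between −0.11 and 0.10 at 8, 12 and 16 h. Rasgef1b was at −1.43 ± 0.36 at 0 h and −1.02 ± 0.35 at 12 h, and between −0.35 and 0.20 at the remaining times. Serpina12 was at 2.27 ± 0.60 at 0 h and 1.74 ± 0.58 at 4 h, and Tsc22d1 at 1.23 ± 0.37 at 0 h and −0.20 to 0.60 later. Of the 16 macrophage genes, 14 had an unadjusted p under 0.05 in the contrast of 0 h with the other times, against 3.91% of all genes. Without WT replicate 3 this held for 3 (1.75% of all genes), and without both libraries for 8 (2.93%). For Cd5l the contrast was −1.67 (edgeR adjusted p = 0.713). In the immediate early list 4 of 28 genes had an unadjusted p under 0.05 in this contrast, with a median of −0.06. In the glucocorticoid response list it was 2 of 18, with a median of −0.29. The acute phase list had 12 of 27, and 0 of 27 without WT replicate 3.

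**Figure D5:**
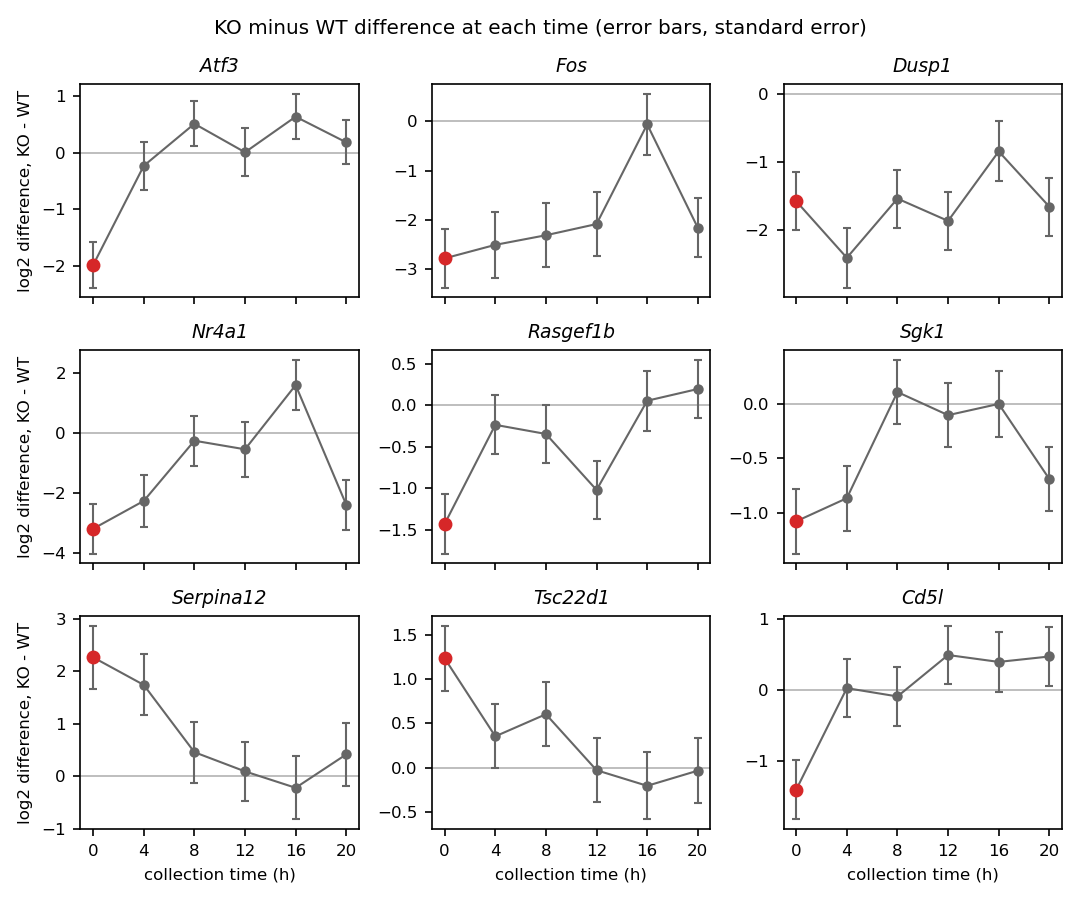
KO minus WT log2 difference with its standard error at each collection time (0 to 20 h) for 9 genes, with 0 h in red. Atf3 stands apart at 0 h (−1.99), while Dusp1 is below 0 at all 6 times and Fos at −2.78 to −2.08 at all times but 16 h.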

How the data were processed

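Liver RNA of 48 mice, 8 of them at 0 h, was sequenced from poly-A libraries primed with random hexamers, per the labels' protocols. The deposited table holds whole-number counts per gene made by the authors. CASAVA, STAR 2.4.1d and the build mm9 are named in the submitters' processing notes. The table's own name marks its counts as sense and MIN, terms that no source defines. The annotation and counting rule were not given in the sources used here, and the kit does not mark strand, so overlapping, antisense and near-identical genes are uncertain. Library totals were nearly equal, and no source says whether the authors thinned them. The Alb row, the only one marked as high, was left out. No pair of 0 h libraries of a group agreed within sampling noise (lowest chi-square per degree of freedom 22.5). Counting error is included in the fitted spread.

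edgeR 4.0.16 in R 4.3.3 kept 13646 of 22353 genes (filterByExpr over the 12 groups, minimum count 10, minimum total 15), scaled by TMM and fitted 12 group means by quasi-likelihood to all 48 libraries. KO minus WT at 0 h, and this minus the mean difference of the other 5 times, were tested two-sided with Benjamini-Hochberg adjustment at 0.05. The fit was also run on counts simulated from its own group means and spread, with an outcome not reported here. No single library was made to stand apart in those counts. That run therefore cannot bear on the libraries with transcripts of other organs. Log2 CPM used a prior count of 2. A standard error is the log2 difference divided by the square root of F. Genes were named as targeted, clock, or past the threshold, as the 10 lowest p in each direction with and without WT replicate 3 and KO replicate 2 (mean of at least 1 CPM, no predicted-gene name), as up to 4 of each list by lowest p, or as adrenal and pancreatic markers. Those chosen after their values were seen are marked. The comparison and the 31 lists were chosen with earlier results of these data known. Lists are described by counts and medians, with no test of a list. Alternatives were DESeq2 1.42.0, limma 3.58.1 (voom with library weights), RLE scaling, no filter, robust fitting, the 0 h libraries alone, a replicate block, libraries or the 16 h groups left out and, added after seeing the data, a GC correction. Each mouse is 1 replicate. Results of some genes are not reported here.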

Additional observations from a re-analysis of the deposited data

Results flagged for a closer look

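In groups of 4 libraries a value was singled out when its gap to the nearest other library, divided by the range of the group, passed Dixon's 95% critical value. Chance flags about 1 in 20 groups. Of 158 combinations of a gene and a group, 34 passed (21.5%), 15 of them in WT replicate 3 and 10 in KO replicate 2, and values are in CPM. The genes were partly chosen for low p-values, so this share does not describe all genes.

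In WT replicate 3, the steroidogenic genes Star (26.5), Cyp21a1 (34.6) and Akr1b7 (20.6) stood above the other WT libraries. So did Slc3a1 (302) and Cpne8 (15.1), the acute phase genes Orm1 (4853), Orm2 (5099), Saa1 (8796), Saa2 (6624), Hpx (21369) and Lcn2 (1293), the neutrophil genes Ngp (85.5) and Ltf (40.9), and the ER gene Pdia6 (259). Acadm (505) stood below the others there.

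In KO replicate 2, the pancreatic elastase genes Cela1 (59.2) and Cela2a (69.0) stood above the other KO libraries. So did Rgs1 (3.27), Fst (8.07), Slc20a1 (57.6), Cyp2b10 (129), Saa2 (32.6) and Cyp3a13 (440), while Bhlhe40 (29.7) and Ndrg1 (25.1) stood below them. WT replicate 2 was likewise high for Slc20a1 (173.9), Cyp2b10 (397) and Rrm2 (12.3).

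In WT replicate 1, Cry1 (45.2) and Jun (121) were high and Cela2a (0.0787) was low. WT replicate 4 was high for Serpina12 (5.54). Atf3 (0.600) was low in KO replicate 1 and Vnn1 (306) in KO replicate 3. Causes were not tested.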

How the results depend on the processing

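Against 2 genes past the threshold at 0 h, the count was 5 with RLE scaling, 10 without a filter on low counts (among them Ctrb1, Prss2 and Hsd3b1), 11 with DESeq2 and 17 with limma voom and library weights. It was 0 in the 8 libraries alone (804 at an unadjusted p under 0.05), 0 with a replicate block at 0 h (601), and 0 without both libraries that held adrenal or pancreatic transcripts (531). It was 1 without both 16 h groups, 5 without KO replicate 2 of 16 h, and 5 after a GC trend was taken out of each library, an alternative chosen after seeing the data. Leaving out single libraries gave 0 to 9 genes, with 0 without WT replicate 3, 7 without WT replicate 1 or 2, 9 without WT replicate 4, 3 without KO replicate 2, and 1 without any other KO library. For 0 h against the other times, the count of 0 became 3 with DESeq2 and 0 to 6 without single libraries: 5, 6, 1 and 6 without WT replicates 1 to 4, 0 without KO replicate 2, and 1 without any other KO library. Without WT replicate 3 that gene was Atf3.

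Of 79 genes, 76 kept their direction under each alternative in which they were fitted, which was 19 for 74 genes and 18 for the other 5. Cyp21a1 was at 0.060 with both libraries left out. Without single libraries, Saa1 ranged from −6.19 to 0.19 and Saa2 from −7.51 to 0.16, with the positive values without WT replicate 3. Star was at −1.68 with limma voom (adjusted p = 0.0681) and at −1.80 with the replicate block (edgeR adjusted p = 0.359). The replicate numbers were not taken to pair the mice. Libraries of the same number had correlated deviations of 0.55, 0.09, −0.22 and 0.20 over 2000 genes, and 4 of 8 libraries correlated best with their own number. With at least 12847558 counts a library, genes under 1 CPM rest on few counts, and 4 mice a side limit what can be called. The cause of these changes was not tested, other than fewer libraries or genes where the alternative makes them so.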

Other observations

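Interferon response genes had mostly positive log2 differences at 0 h, 20 of 26 with a median of 0.24, and 24 of 26 with a median of 0.36 without the 2 libraries, and none passed the threshold. Gbp10, a guanylate-binding protein gene, differed by 1.51 ± 0.62 and its groups overlapped. The averaged list was lowest in WT replicates 1 and 2 (−0.45 and −0.75 relative to the mean of the 8 libraries), while WT replicates 3 and 4 (0.22 and 0.36) lay within or above the KO values of −0.01 to 0.28.

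Genes with a known sex bias in liver leaned to positive differences in both lists, 13 of 20 female-biased genes with a median of 0.35 and 13 of 20 male-biased genes with a median of 0.30. Of 18 bile acid genes, 10 were positive, with a median of 0.03, and 0.11 without the 2 libraries. Cyp7b1, an oxysterol hydroxylase of bile acid synthesis and itself a male-biased gene, was at 10.2 to 22.2 CPM in WT and 17.0 to 38.0 in KO (0.61 ± 0.25, and 0.93 ± 0.28 without the 2 libraries). Of 13 endothelial genes, 10 were negative with a median of −0.24.

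Much of the spread among the 8 libraries did not follow genotype. The first principal component of their expression held 42.9% of the variance, with WT replicate 1 and KO replicates 1 and 3 at one end and WT replicates 3 and 4 and KO replicate 2 at the other. Across 10793 genes with a GC content, the deviation of a library from the mean of the 8 had a Spearman's rho with GC content of 0.51, 0.08, −0.23 and −0.52 in WT and of 0.10, −0.52, 0.35 and 0.17 in KO. Genes are not independent replicates, and these values describe the libraries. With the trend taken out, edgeR called 5 genes at 0 h, Cela2a, Star, Atf3 and Orm2 among them.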
